A study of Mus musculus with 168 samples.

Results

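Mir22 is the mouse gene of the microRNA miR-22. Its level was described in the mouse hippocampus over an allelic series of CAG knock-ins that model Huntington's disease (HD), a disorder caused by an expanded CAG repeat in the Huntingtin gene. Mir22 is 1 of the 1626 transcripts in the deposited count table and 1 of the 470 that passed the filter on low counts. Its row was found by the transcript identifier ENSMUST00000083595, which the GENCODE M21 annotation (GRCm38) assigns to Mir22. The gene was picked with its slopes on CAG length at 6 and 10 months known, so all genotype differences at these ages are given as descriptions without a test. Tests are given for CAG length at 2 months and for sex, which took no part in the choice, and for age. The age test takes in the libraries of 6 and 10 months whose slopes were known, so it is not fully apart from the choice.

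Hippocampal short RNA was sequenced from mice labelled C57BL/6 (the study's methods give C57BL/6J dams), 1 animal per library, at 2, 6 and 10 months of age (2m, 6m, 10m). The knock-in mice were heterozygous, with 1 wild-type Htt allele and 1 allele holding human HTT exon 1 with a CAG repeat, in the lines Q20, Q80, Q92, Q111, Q140 and Q175. Wild-type (WT) mice were littermates of the Q20 line, and Q20 and WT mice together are called controls. Each of the 21 groups (genotype by age) held 8 libraries from both sexes. The repeat lies in the endogenous gene, so it is not limited to 1 cell type by a promoter. The Q175 line came from a spontaneous expansion in the Q140 line. Per the labels, Q20 and WT mice shared housing and mice of every other line were housed with their own line, so housing cannot be told apart from genotype. The study's methods describe cages that mixed heterozygous and WT mice.

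A microRNA gene is transcribed as a long primary transcript, from which a hairpin and then a duplex of mature strands are cut. A mature strand guides the Argonaute silencing complex to messenger RNAs, mainly through the seed, the short stretch next to its 5′ end. miR-22 is best known from heart and skeletal muscle and from tumour biology, and it is also made in brain. In rat neurons in culture, added miR-22 has been described as protective against a mutant Huntingtin fragment.

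The mature sequences of Mir22 are shown because the count of the gene pools everything cut from this hairpin. The RefSeq sequences (GRCm38.p6) follow 5′ to 3′ with the seed, bases 2 to 8, in capitals.
miR-22-3p: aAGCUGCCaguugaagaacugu
miR-22-5p: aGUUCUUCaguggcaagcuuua
The hairpin of 95 bases that carries both arms follows, with the arms in capitals.
Mir22 hairpin: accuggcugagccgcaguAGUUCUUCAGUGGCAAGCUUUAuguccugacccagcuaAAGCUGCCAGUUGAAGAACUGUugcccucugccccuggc
The hairpin lies on the plus strand at chr11:75463716-75463810 (GRCm38), within exon 2 of the noncoding host gene Mir22hg, which spans chr11:75461539-75466676. The 5p arm takes positions 19 to 40 of the hairpin and the 3p arm positions 57 to 78. Of the 1738 mature mouse entries in the RefSeq table, 0 others share the seed of miR-22-3p and 0 others share that of miR-22-5p, so Mir22 has no seed family in that table. The deposited row is a count of the whole gene, and the share of each arm was not analysed here.

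Libraries held 2117539 to 9099227 estimated counts (median 3374648). Mir22 alone took 117447 to 484704 of them, and at its lowest count the counting error was 0.292% of the value, far below the spread between animals described below. Levels are in CPM, counts relative to 1000000 on library sizes scaled by the TMM method. Library names carried an L code whose meaning the labels and methods do not state. Within each age the codes were used as batches, L2, L3 and L4 at 2m and L6, L7 and L8 at 10m. At 6m 2 blocks of library numbers were used instead. Block A held 16 libraries, all of them Q175 or WT and all coded L6, and block B held the other 40, coded L1 but for Q92 6m F2 with L3. The 8 neuronal microRNAs averaged from 4.70 CPM (Mir124a-2) to 18844 CPM (Mir128-1), with Mir124a-1 at 6074 CPM and Mir124a-3 at 94.2 CPM. Of the 8 muscle microRNAs in the table, Mir133a-1 averaged 93.2 CPM and the other 7 from 0.0577 CPM (Mir133b) to 5.40 CPM (Mir1a-1). Of the 3 leukocyte and microglia microRNAs, Mir150 averaged 1148 CPM, Mir223 7.83 CPM and Mir155 6.87 CPM. In 19 libraries of various genotypes the microRNAs of choroid plexus and ependyma summed to more than 15000 CPM. Among the Q175, Q20 and WT groups the median of this sum ran from 7340 CPM in Q175 at 10m to 8508 CPM in Q20 at 2m.

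Mir22 was among the most abundant microRNAs in every library. It took 4.56 to 7.65% of the estimated counts of a library, with a median of 6.07%. It ranked 4th by count in 166 libraries and 3rd and 5th in 1 library each. The genes above it in all counts together were Mir127 with 10.2%, Mir26a-2 with 10.0% and Mir181a-2 with 9.88%, and Mir9-2 stood next below with 4.05%. On the deposited RPKM scale, which divides by gene length, Mir22 had a median rank of 6 and ranks from 4 to 8.

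Across all 21 groups the mean level of Mir22 moved within a narrow range. The lowest group mean was 53817 CPM in Q175 at 10m and the highest was 66721 CPM in WT at 6m, a ratio of 1.24. Single libraries ran from 45981 CPM (Q175 6m F4) to 74559 CPM (a Q20 library at 2m). The coefficient of variation within a group was 2.97 to 12.5%, with a median of 6.88%. When the 21 group means were put in order, the gap between neighbours was smaller than their pooled SD in 20 of 20 steps. The largest step, 0.82 SD, lay between Q175 at 10m and Q175 at 6m, the 2 groups at the low end.

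At 2m the level did not follow CAG length. The means were 63308 ± 6000 CPM in WT, 60879 ± 7604 CPM in Q20 and 63096 ± 4527 CPM in Q80 (SD, n = 8 each). They were 62715 ± 4871 CPM in Q92, 59994 ± 4758 CPM in Q111, 64594 ± 6335 CPM in Q140 and 62434 ± 4236 CPM in Q175. The 8 Q175 libraries had a lowest value of 57940, a median of 60762 and a highest value of 68668 CPM, against 50822, 62406 and 74559 CPM in the 16 controls. The Q175 values thus lay inside the range of the controls.

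The slope on CAG length at 2m was a log2 change of 0.0079 per 100 repeats (SE 0.027, 95% interval -0.045 to 0.061), and it was not called (edgeR quasi-likelihood test with Benjamini-Hochberg adjustment over 470 transcripts, adjusted p = 0.988). In this comparison 1 transcript, or 0.213% of those tested, was called. The sign turned to -0.0064 without Q20 2m F3 and to -0.0014 without WT 2m M4, so the 2m data gave no direction. Against controls, the log2 differences at 2m were 0.05 in Q80 (SE 0.06), 0.04 in Q92 (SE 0.06), -0.07 in Q111 (SE 0.06), 0.09 in Q140 (SE 0.05) and 0.00058 in Q175 (SE 0.052). None of these 5 was called by edgeR (adjusted p of 0.656 to 0.999), in comparisons that called 0.0% of the 470 transcripts. Across the 470, 8 to 29 transcripts had an unadjusted p under 0.05 and DESeq2 called 0 to 2. The interval of the Q175 difference at 2m ran from -0.10 to 0.10, so a change of about that size could not be seen at this age.

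**Figure D1:**
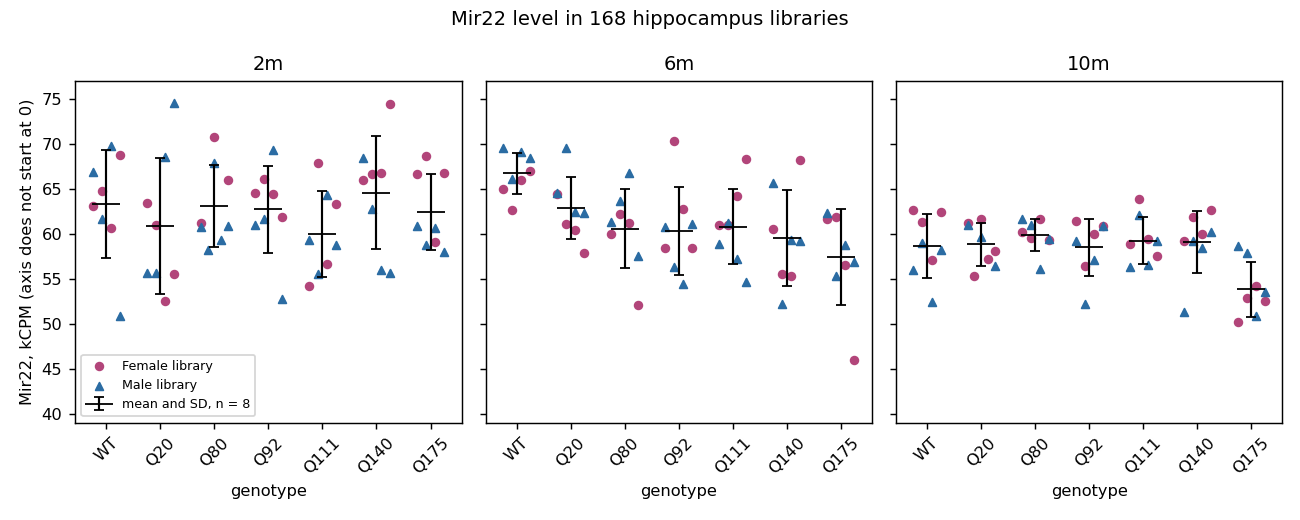
Mir22 level (kCPM, CPM with the prefix kilo, axis not from 0) in each library by genotype, in a panel per age, with circles for females, triangles for males and the mean and SD of 8 libraries in black. Genotypes overlap at 2m, and Q175 has the lowest mean at 6m (57393 CPM) and at 10m (53817 CPM).

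At 6m Q175 was the lowest group and WT the highest. The means were 66721 ± 2304 CPM in WT, 62848 ± 3470 CPM in Q20, 60586 ± 4373 CPM in Q80 and 60319 ± 4881 CPM in Q92 (SD, n = 8 each). They were 60810 ± 4183 CPM in Q111, 59514 ± 5363 CPM in Q140 and 57393 ± 5338 CPM in Q175. The Q175 libraries had a lowest value of 45981, a median of 57810 and a highest value of 62299 CPM, against 57869, 64760 and 69556 CPM in the 16 controls. All 8 Q175 libraries lay below the median of the controls and 4 lay below the lowest control. The slope was -0.10 log2 per 100 repeats (SE 0.03). It placed Mir22 at rank 60 from the lowest among the 470 slopes, whose median was 0.02.

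Each expanded allele had a negative estimate at 6m. The log2 difference from controls was -0.05 in Q80 (SE 0.04), -0.07 in Q92 (SE 0.05), -0.04 in Q111 (SE 0.04), -0.08 in Q140 (SE 0.05) and -0.21 in Q175 (SE 0.06). Because of the batch term, the Q175 value compares Q175 with WT in block A, and the values of the other alleles compare them with Q20 in block B. Within block A, Q175 averaged 57393 CPM and WT 66721 CPM. Without the batch term the Q175 difference was -0.17, and in block B alone, which holds neither Q175 nor WT, the slope was -0.07 (SE 0.04).

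At 10m Q175 had the lowest mean, and the means of the shorter alleles lay close to those of the controls. The means were 58638 ± 3527 CPM in WT, 58818 ± 2417 CPM in Q20, 59869 ± 1776 CPM in Q80 and 58512 ± 3147 CPM in Q92 (SD, n = 8 each). They were 59226 ± 2620 CPM in Q111, 59112 ± 3473 CPM in Q140 and 53817 ± 3032 CPM in Q175. The Q175 libraries had a lowest value of 50138, a median of 53203 and a highest value of 58593 CPM, against 52419, 58590 and 62705 CPM in the 16 controls. The groups overlapped, with 7 of 8 Q175 libraries below the median of the controls and 2 below the lowest control.

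The slope at 10m was -0.06 log2 per 100 repeats (SE 0.02), at rank 134 from the lowest of 470. Without the 8 Q175 libraries it was -0.0013 (SE 0.021). The log2 difference from controls was 0.02 in Q80 (SE 0.03), -0.03 in Q92 (SE 0.03), 0.00026 in Q111 (SE 0.030), -0.0057 in Q140 (SE 0.033) and -0.14 in Q175 (SE 0.03), which for Q175 is 0.909 times the level of the controls. At 6m the slope without Q175 was -0.07 (SE 0.04), against -0.10 with them.

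**Figure D2:**
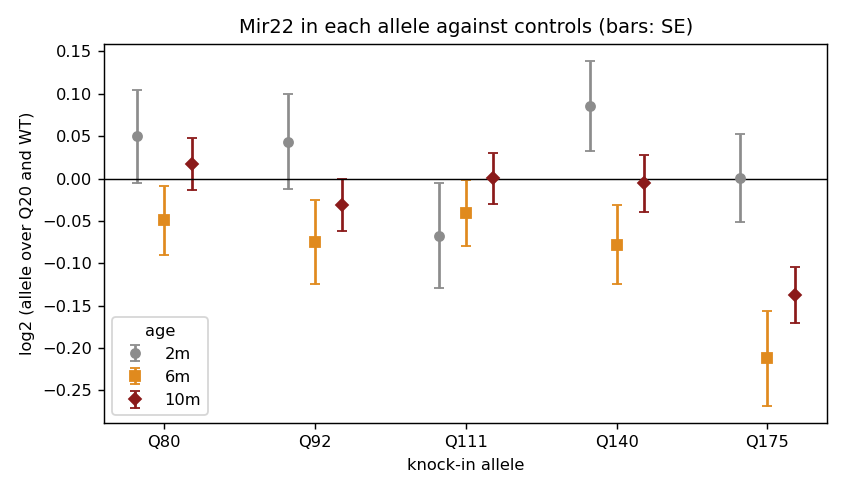
Log2 difference of Mir22 between each knock-in allele and controls (Q20 and WT) from edgeR, with bars of 1 SE, by age (circles 2m, squares 6m, diamonds 10m). Values scatter around 0 at 2m, and the lowest are those of Q175 at 6m (-0.21) and 10m (-0.14).

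The sexes were described separately at each age. The slope was 0.0041 in males and 0.06 in females at 2m, -0.13 in males and -0.08 in females at 6m, and -0.05 in males and -0.06 in females at 10m, with SE of 0.02 to 0.05. The difference between the sexes in slope was not tested. Mean Mir22 in Q175 at 10m was 55217 CPM in males and 52417 CPM in females, and in WT it was 56385 CPM in males and 60891 CPM in females (n = 4 each). In Q20, the other control group, it was 59046 CPM in males (n = 3) and 58682 CPM in females (n = 5).

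The Q175 difference at 10m was below 0 in each of the 3 batches of that age. These are the libraries whose slope was known when Mir22 was picked, so the split describes them and does not replicate the difference. In unadjusted log2 means, Q175 minus controls was -0.15 in L6 (3 Q175 and 8 control libraries), -0.13 in L7 (3 and 6) and -0.11 in L8 (2 and 2). At 2m it was 0.0092 in L3 (4 and 9) and -0.02 in L4 (4 and 6), and L2 held no Q175 library. In block A at 6m it was -0.22 (8 Q175 and 8 WT libraries). The batches differed among themselves at 2m, where L4 averaged 66110 ± 5938 CPM (n = 20), L3 60292 ± 4319 CPM (n = 30) and L2 60867 ± 1554 CPM (n = 6). At 10m the means were 56443 CPM in L6, 58847 CPM in L7 and 59545 CPM in L8.

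**Figure D3:**
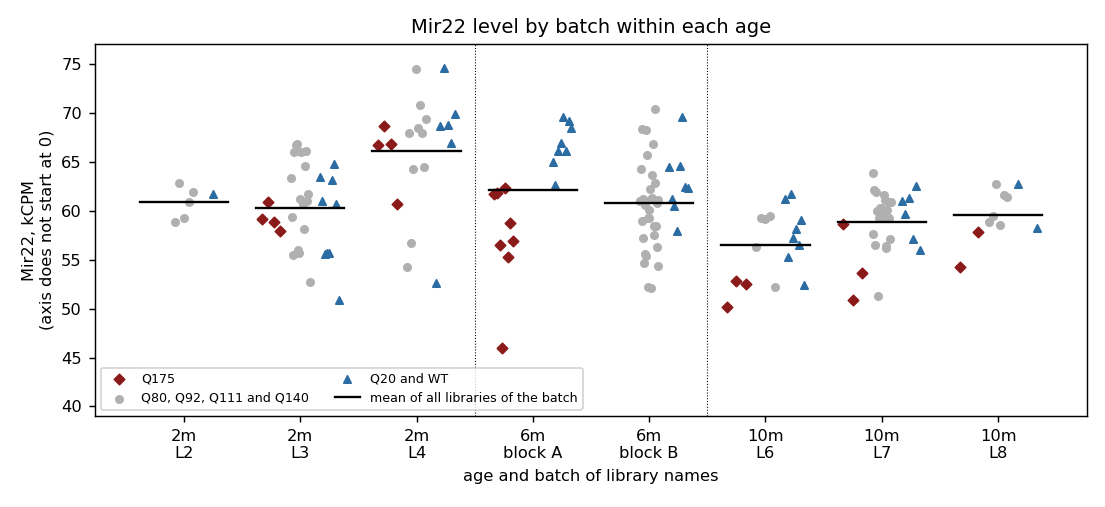
Mir22 level (kCPM, CPM with the prefix kilo, axis not from 0) of each library by age and batch, with Q175 as diamonds on the left, Q80 to Q140 as grey circles and controls as triangles on the right of each batch, and a line at the batch mean. At 10m the Q175 libraries lie below the mean of L6, L7 and L8, with 1 library in L7 close to it, and the 2m batch L4 has the highest mean of all batches (66110 CPM).

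Some cell type microRNAs moved alongside Mir22. The 8 neuronal microRNAs on the list, 8 of 8 in the table with a mean over 1 CPM, summed to 35961 to 44416 CPM in Q175 at 10m, against 41421 to 47740 CPM in controls. At 6m the sum was 39986 to 46369 CPM in Q175 and 38673 to 52157 CPM in controls, with medians of 43022 CPM in Q175, 47463 CPM in WT and 41093 CPM in Q20. Across all libraries, after group, sex and batch were removed, the neuronal sum had a Pearson r of 0.36 with Mir22, the sum of 3 red blood cell microRNAs an r of -0.49 and that of 8 muscle microRNAs an r of 0.44, the sums of oligodendrocytes and of leukocytes and microglia an r of 0.26 each, and that of epithelium an r of 0.18. The r was 0.06 for the choroid plexus sum and 0.0017 for the blood vessel sum. The red blood cell sum was largely Mir486, with a mean of 2985 CPM, against 186 CPM for Mir451a and 27.7 CPM for Mir144. The muscle sum was largely Mir133a-1, with a mean of 93.2 CPM, and Mir1a-1 came next with 5.40 CPM. Each of these sums thus mostly reflects 1 gene, and its r was not tested as a measure of blood cell or muscle content. All r values here are descriptions, and effects of depth and handling on them were not tested. The red blood cell sum at 10m was 2649 to 3244 CPM in Q175 and 2423 to 3698 CPM in controls. The muscle sum at 10m was 57.5 to 135 CPM in Q175 (median 81.4) and 86.8 to 181 CPM in controls (medians of 101 in Q20 and 109 in WT). At 6m its medians were 103 CPM in Q175, 104 CPM in Q20 and 122 CPM in WT. The epithelium sum at 10m had medians of 92.2 CPM in Q175, 124 CPM in Q20 and 161 CPM in WT. Of the 8 neuronal genes 0 were at 0 in all libraries, and 4 of them, the Mir128 and Mir138 genes, are also on the list of HD microRNAs described further on. These 4 made up most of the neuronal sum, with means of 18844 CPM (Mir128-1), 9837 CPM (Mir128-2), 928 CPM (Mir138-1) and 10133 CPM (Mir138-2). The sum is thus largely that of HD list members. The part of the neuronal, blood cell, muscle and epithelial microRNAs in the Mir22 values was not tested, and in bulk tissue fewer cells of a type and less RNA per cell cannot be told apart. Without the 19 libraries high in choroid plexus microRNAs the Q175 difference was -0.14 at 10m and -0.21 at 6m. Library totals at 10m were 2795701 to 3764556 in Q175 and 2706633 to 4174657 in controls.

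No difference between the sexes in Mir22 was called. The log2 difference of males over females was -0.05 at 2m (SE 0.03), 0.0087 at 6m (SE 0.030) and -0.03 at 10m (SE 0.02), with genotype and batch in the model. The edgeR adjusted p was 0.580 at 2m, 0.968 at 6m and 0.548 at 10m. The share of all transcripts called in these comparisons was 0.426% at 2m, 0.0% at 6m and 0.0% at 10m. At 6m and 10m 32 and 63 transcripts had an unadjusted p under 0.05, and DESeq2 called 0 and 1. The 95% intervals of the Mir22 difference were -0.11 to 0.01 at 2m, -0.05 to 0.07 at 6m and -0.07 to 0.0058 at 10m.

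Mir22 was lower at 10m than at 2m. The log2 difference over all 7 genotypes was -0.10 (SE 0.02), or 0.933 times, and it was called (edgeR, all libraries, adjusted p = 9.87e-06). Calls were common here, since 45.1% of the 470 transcripts were called between these ages and 23.0% were called lower. The 56 libraries averaged 58284 ± 3336 CPM at 10m and 62431 ± 5470 CPM at 2m. The unadjusted log2 difference was below 0 in each of the 7 genotypes, from -0.02 in Q111 (SE 0.05) to -0.21 in Q175 (SE 0.04), and it was -0.11 in WT (SE 0.06) and -0.04 in Q20 (SE 0.07). The fit over all genotypes holds the Q175 libraries of 10m, whose low values entered the slope known when Mir22 was picked. Without Q175 the fitted difference was -0.07 (adjusted p = 0.00256), and in the controls alone it was -0.08 and was not called (adjusted p = 0.183). The 2m and 10m libraries shared none of their L codes, so age and batch cannot be told apart, and the 2m batches L4 and L3 differed from each other by more CPM than the 2 ages did.

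Between 6m and 2m no direction held for Mir22. The fitted log2 difference was -0.03 (SE 0.02) and was not called (adjusted p = 0.175), while 64.7% of the transcripts were. With DESeq2 it was -0.06 and was called (adjusted p = 0.00386), and with upper-quartile scaling it was 0.02. By genotype the unadjusted difference was 0.08 in WT (SE 0.05), 0.05 in Q20 (SE 0.07) and 0.02 in Q111 (SE 0.05), against -0.06 in Q80 (SE 0.05), -0.06 in Q92 (SE 0.06), -0.12 in Q140 (SE 0.07) and -0.12 in Q175 (SE 0.06).

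Mir132 and Mir212 are the measured neighbours of Mir22 on chromosome 11. They form a cluster 289969 and 290238 bases upstream of Mir22 on the same strand, and both are known as microRNAs induced by neuronal activity through the transcription factor CREB. Their main strands are shown because they share a seed (capitals) that differs from both Mir22 seeds.
miR-132-3p: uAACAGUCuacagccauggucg
miR-212-3p: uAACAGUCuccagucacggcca
Of the 3 neighbours within 1 Mb in the table, Mir3971 had a mean of 0.512 estimated counts and did not pass the filter. Mir132 averaged 3134 CPM and Mir212 1135 CPM over all libraries.

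Mir132 and Mir212 were lower in Q175 at both later ages, as Mir22 was. At 10m Mir132 averaged 2499 ± 154 CPM in Q175, against 2944 ± 130 CPM in Q20 and 2962 ± 127 CPM in WT (SD, n = 8 each), and the 8 Q175 libraries (2331 to 2725 CPM) all lay below the lowest control (2741 CPM). Mir212 averaged 862 ± 55 CPM in Q175, against 1068 ± 56 CPM in Q20 and 1058 ± 77 CPM in WT. The log2 difference of Q175 from controls at 10m was -0.25 for Mir132 (SE 0.04) and -0.30 for Mir212 (SE 0.04), both called (edgeR adjusted p = 3.14e-05 each), in a comparison that called 11.9% of all transcripts and 6.38% as lower. At 6m it was -0.27 for Mir132 (adjusted p = 0.0122) and -0.21 for Mir212 (adjusted p = 0.0225), where 3.4% of all were called and 2.13% as lower. These comparisons share their control libraries with that of Mir22, whose own values were -0.14 at 10m and -0.21 at 6m. At 2m the Q175 values were 0.0099 and 0.02 for this pair and 0.00058 for Mir22.

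On CAG length, Mir132 had a slope of -0.10 at 10m (SE 0.03, adjusted p = 0.0273) and Mir212 one of -0.14 (SE 0.03, adjusted p = 0.00327), where 11.1% of all transcripts were called and 5.32% as lower. Both slopes at 6m were -0.09 and neither was called (adjusted p of 0.184 for Mir132 and 0.0773 for Mir212). At that age 2 of the 2 had an unadjusted p under 0.05, 1.28% of all transcripts were called by edgeR, and DESeq2 called both neighbours. Without Q175 edgeR called 0 of the 2 at 10m, 0 had an unadjusted p under 0.05, and their median slope was -0.01. Within groups the pair followed Mir22 only weakly. The library residuals correlated with those of Mir22 at a Pearson r of 0.07 for Mir132 and 0.14 for Mir212 over all libraries. With TMM or library totals, and Pearson or Spearman, r was -0.0067 to 0.20 for Mir132 and 0.14 to 0.24 for Mir212.

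A list of microRNAs described, together with miR-22, as lower in striatum of other HD mouse models held 23 names. Of these, 22 were in the table and 15 passed the filter, Mir22 included. They take in the neuronal Mir128 and Mir138 genes, Mir218, Mir132, Mir222, Mir29c, Mir674 and the Mir344 family. For the slope at 10m, 7 of the 14 others were called lower and 0 higher, against 5.32% and 5.74% of all transcripts. Their median slope was -0.07, against -0.0015 over all 470, and 13 of 14 were below 0. The lower ones were Mir222 with -0.19 (SE 0.03, adjusted p = 8.16e-05), Mir218-2 with -0.15, Mir344b with -0.14, Mir344c with -0.20, Mir132 with -0.10, Mir128-2 with -0.07 and Mir128-1 with -0.07. Mir22 itself had -0.06. The 7 called members had larger estimates than Mir22, which is the most abundant of the list. They include both Mir128 genes as well as Mir344b and Mir344c, so genes of a shared family are counted separately.

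Without Q175 edgeR called 0 of the 14 at 10m and 0 of all 470, 1 of the 14 had an unadjusted p under 0.05, and their median slope was -0.0046. DESeq2 was run with Q175 only. Without the libraries high in choroid plexus microRNAs 4 of 14 were called lower, against 4.47% of all transcripts in that fit. With males alone 1 was, against 0.426%, and with females alone 2 were, against 1.06%. At 6m 1 of 14 was called lower, Mir222 with -0.13 (SE 0.03, adjusted p = 0.00828), against 0.638% of all transcripts. In the comparison of Q175 with controls, 7 of 14 were called lower and 0 higher at 10m, against 6.38% lower and 5.53% higher over all transcripts. At 6m 2 of 14, Mir132 and Mir222, were called lower, against 2.13%. The batch term makes this a comparison of Q175 with WT in block A. Mir222 at 6m averaged 2799 CPM in Q175 and 3539 CPM in WT, but 2851 CPM in Q20 and 2778 CPM in Q140. The 6m slope of Mir222 takes in the same WT libraries. At 2m 0 of 14 were called for the slope by edgeR and by DESeq2, 0 had an unadjusted p under 0.05, and 7 were below 0. The members were chosen with earlier results of these libraries known, so this count does not stand on its own.

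**Figure D4:**
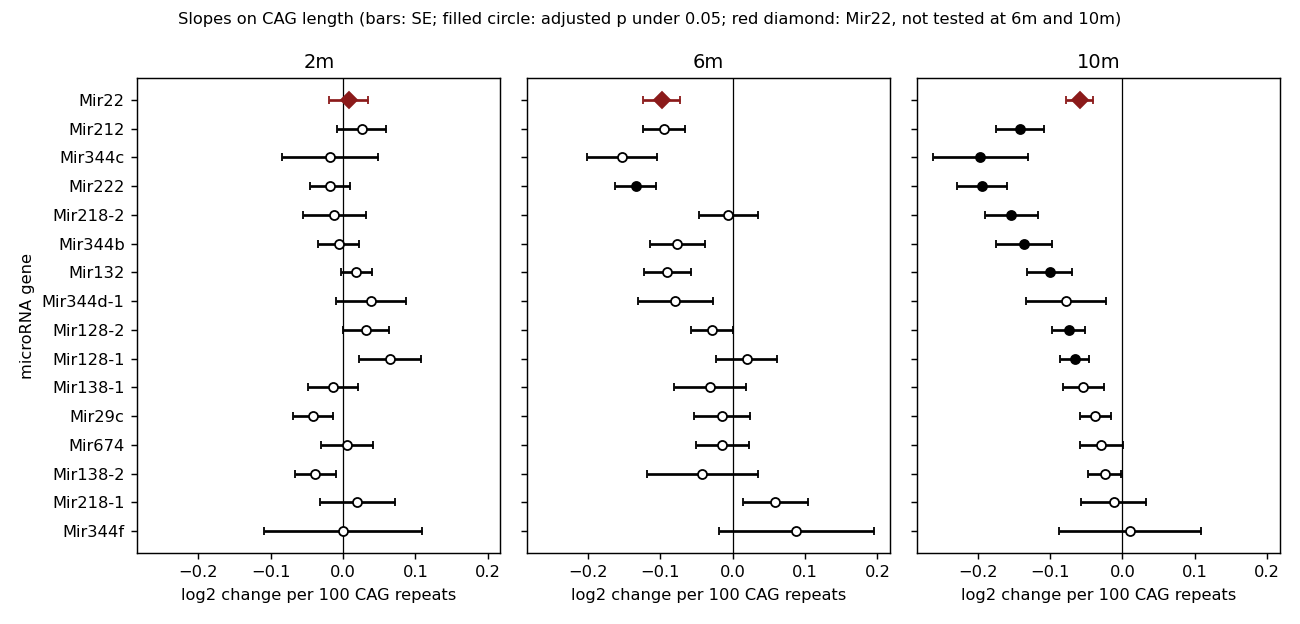
Slopes on CAG length (log2 change per 100 repeats, bars of 1 SE) of Mir22 (red diamond), its neighbour Mir212 and the 14 other tested members of the list, in a panel per age, with filled circles for an adjusted p under 0.05. At 10m 13 of the 14 list members lie below 0 and 7 of them are called.

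Of the 20 most abundant transcripts, most lay below 0 in Q175 at 10m. Besides Mir22, 14 of the 19 others did, against 48.5% of all 470. Of the 19 others, 5 were called lower and 1 higher in Q175 at 10m, against 6.38% lower and 5.53% higher over all 470, and their median log2 difference was -0.03. The lower ones included Mir29a with -0.18, Mir27b with -0.15 and Mir128-1 with -0.15, and the higher one was Mir181a-2 with 0.19 (SE 0.06). At 6m 1 of 19, Mir29a, was called lower, with -0.18, or 5.26%, against 2.13% of all transcripts. The 20 transcripts held 69.3% of the counts and the 5 most abundant 40.3%, so a shift in a few of them alters the CPM of the rest. With the 10 most abundant left out of the scaling, the Q175 difference of Mir22 was -0.13 at 10m and -0.23 at 6m.

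The transcripts whose pattern over the 21 group means was most like that of Mir22 were Mir222 (Pearson r = 0.84), Mir221 (0.77), Mir132 (0.76), Mir3078 (0.76) and the unnamed ENSMUST00000117004 (0.75), in log2 CPM. The 2 most opposite were Mir203 (-0.79) and Mir410 (-0.77). Mir222 and Mir221 are neighbours on the X chromosome that share a seed, shown in capitals.
miR-221-3p: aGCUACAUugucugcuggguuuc
miR-222-3p: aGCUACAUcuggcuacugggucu
Group means mix genotype, age and batch. Without WT at 6m and Q175 at 10m, the groups farthest from the median of Mir22, the r was 0.64 for Mir222, 0.29 for Mir221 and 0.65 for Mir132 over 19 groups. For Mir3078 it was 0.45 and for ENSMUST00000117004, with a mean of only 2.63 CPM, it was 0.77. Among the 7 groups of 1 age the r was -0.11, 0.85 and 0.83 for Mir222 at 2m, 6m and 10m. For Mir132 it was -0.55, 0.54 and 0.94. WT at 6m had the highest mean of that age in both Mir22 and Mir222 (Mir222 3539 CPM). Q175 at 10m had the lowest mean of that age in both (Mir222 2049 CPM). The r of a single age was not taken without these groups, so a likeness across the other genotypes is not shown. Of these 5 transcripts, 3 stayed among the 5 most alike by Spearman rank and 4 with library totals in place of TMM, but 0 with both changes at once.

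Within groups other microRNAs tracked Mir22. After group, sex and batch were removed, the 5 most alike over all libraries were Mir29a (r = 0.69), Mir26a-2 (0.63), Mir186 (0.57), Mir872 (0.55) and Mir497b (0.53). Mir29a is an abundant member of the miR-29 family, known for targets among collagens and DNA methyltransferases.
miR-29a-3p: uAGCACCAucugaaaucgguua
Its seed (capitals) differs from both Mir22 seeds. Without the 2 libraries farthest from the median, Q175 6m F4 and Q20 2m F3, the r with Mir29a was 0.69 over 166 libraries. Effects of depth, handling and base composition on these r values were not tested. Of the 5 transcripts, 0 were also among the 5 most alike over group means.

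**Figure D5:**
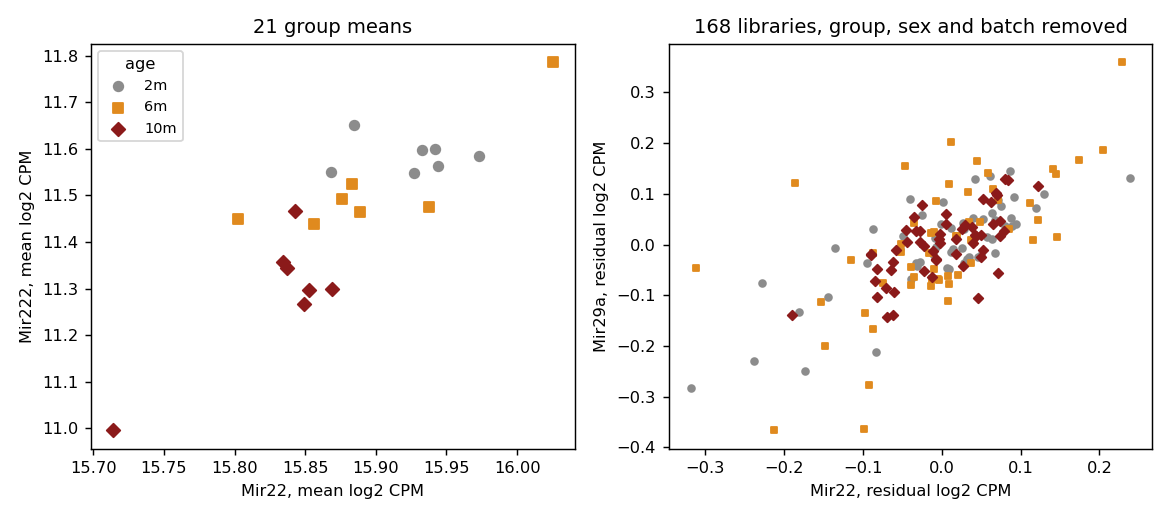
Left, mean log2 CPM of Mir222 against Mir22 in the 21 groups (r = 0.84), coloured by age. Right, residual log2 CPM of Mir29a against Mir22 in all libraries after group, sex and batch were removed (r = 0.69).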

How the data were processed

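According to the study's methods, hippocampal RNA was extracted with the miRNeasy kit and sequenced on a HiSeq2000 with strand-specific single-end 36-base reads. Reads were aligned to mm10 with STAR at default settings and counted with HTSeq, and the submitters' notes name CASAVA 1.8.2. For 1626 transcripts, counts and RPKM values were deposited by the authors in separate tables. The deposited counts were often fractional (per library, the median share of whole values among those above 0 was 51.4%, tolerance 0.001), so they were treated as estimated counts. HTSeq by default gives whole counts, and which step made the fractions is not stated. Whole counts had been assumed when the tests were planned, so values were rounded before edgeR. For Mir22 they were fractional in 1 library. Fractional values can share a read among like loci, which was not tested. The RPKM values deposited by the authors served only as an alternative. For a given share of counts, Mir22 RPKM was higher in block A (median ratio 105263) than in the other libraries (70110).

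Transcripts were named from GENCODE M21, which matched 1228 of 1626. Sequences came from RefSeq (GRCm38.p6), with an entry for 320 of the 470 tested transcripts. Of the 588 pairs of libraries within groups, 0 were identical, with chi-square values of at least 11.5 per degree of freedom. Transcripts passing filterByExpr (minimum count 10, 21 groups) were tested with edgeR 4.0.16 (R 4.3.3), TMM scaling and 2-sided quasi-likelihood tests, adjusted by Benjamini-Hochberg. A call is an adjusted p under 0.05. CAG length (7 for WT) entered as a number in 56 libraries per age, and single alleles were compared with Q20 and WT (24 libraries), with sex and batch as covariates. Sex was tested per age with genotype and batch, and age in all libraries with genotype and sex. The SE is the log2 change divided by the square root of F and is approximate. P-values measure the spread between animals of 1 cohort per group.

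The named transcripts were Mir22, the 5 most and 2 least like it over group means, the 5 most like it within groups, microRNA genes within 1 Mb, the 20 most abundant transcripts and the HD list. Of the neighbours and the HD list every called member was to be named, and of each list up to 4 others. The gene, its lists and tests were chosen with earlier results of these data known. The annotated neighbours Mir6926 and Gm47300 and the list name Mir344d-2 were not analysed here. Alternatives were other scalings (RLE, upper quartile, library totals, TMM without the 10 most abundant), no filter, DESeq2 1.42.0, limma 3.58.1 on log2(RPKM + 0.5), no batch term, a replicate block, single sexes, other controls and leaving out libraries or genotypes. The fits without the 19 libraries high in choroid plexus microRNAs, and the age fits without Q175, were chosen after seeing the data. Replicate numbers did not pair libraries. The edgeR step was tested on simulated data.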

Additional observations from a re-analysis of the deposited data

Results flagged for a closer look

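In 5 of the 21 groups 1 library stood apart from the other 7 in Mir22, by Dixon's test on log2 CPM at the 95% level, and in each it was the lowest of its group. Chance alone flags about 1 in 20 groups. They were WT 2m M4 with 50822 CPM (median of its group 63937 CPM), Q92 2m M4 with 52734 CPM (63166 CPM), Q175 6m F4 with 45981 CPM (57810 CPM), Q80 10m M3 with 56141 CPM (59873 CPM) and Q140 10m M1 with 51277 CPM (59572 CPM). Of these, 4 were from males. Q175 6m F4 was also the lowest of all libraries, and without it the 6m slope was -0.08 log2 per 100 CAG repeats, against -0.10 with it.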

How the results depend on the processing

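The slope at 2m changed sign when single libraries were left out (-0.0064 to 0.018 over 56 fits, -0.0064 without Q20 2m F3 and -0.0014 without WT 2m M4). The Q175 difference at 2m, 0.00058, was -0.0031 with RLE scaling and with DESeq2, -0.011 with the 10 most abundant left out of the scaling, -0.0066 without the filter and -0.030 against WT alone. The sex difference at 6m was -0.00047 with upper-quartile scaling and -0.0032 to 0.027 with single libraries left out. The difference between 6m and 2m turned to 0.021 with upper-quartile scaling, 0.14 with limma on log2 RPKM and 0.086 in controls alone. For the limma value, Mir22 RPKM in block A at 6m was higher for a given share of counts, as stated above. The difference between 6m and 2m was called in 4 of 11 alternatives, among them -0.064 with RLE (adjusted p = 0.00438), -0.045 without the 10 most abundant (0.0399) and -0.064 with DESeq2 (0.00386). Between 10m and 2m it was not called with limma on RPKM (-0.056) or in controls alone (-0.077). The cause was not tested. The slope stayed below 0 at 6m (-0.13 to -0.07 over 15 alternatives, -0.11 to -0.08 with single libraries left out) and at 10m (-0.08 to -0.0013 over 14, -0.06 to -0.05). The Q175 difference was -0.24 to -0.17 at 6m and -0.17 to -0.12 at 10m. Sex differences with single libraries left out were -0.06 to -0.04 at 2m and -0.04 to -0.03 at 10m. Calls over all transcripts ran from 0 without Q175 to 13 with DESeq2 for the 6m slope (6), from 0 without Q175 to 81 with the replicate block for the 10m slope (52), from 9 to 138 without the batch term for Q175 at 6m (16) and from 36 to 77 for Q175 at 10m (56). Replicate numbers shared across groups did not pair libraries (mean r of 0.0054 for the same number and 0.00096 for others), and with the replicate block the 2m slope was 0.0092. Q175 at 6m against Q20 alone, and the other alleles at 6m against WT alone, could not be fitted with the batch term.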
